A study of Mus musculus with 11 samples.

Results

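The integrated stress response was followed through 9 of its regulators in whole cochleae, namely 6 bZIP transcription factors or partners (*Atf4*, *Atf5*, *Ddit3*, *Atf3*, *Cebpb*, *Cebpg*) and 3 genes that act on them or below them (*Nupr1*, *Trib3*, *Chac1*). They were chosen by name, and all 9 were found among 18667 genes listed and among the 16169 genes whose mean reached 0.1 FPKM (fragments scaled to transcript length and to the mapped fragments of the library). The libraries came from 5 *Atf6*+/+ cochleae (labelled WT) and 6 *Atf6*-/- cochleae (labelled ATF6 Knockout). Whether each cochlea came from a different mouse is not stated in the sources used here, and the fits treat the libraries as independent. The mice were 2 months old and on the C57BL/6J background, a strain that itself loses high-frequency hearing with age. The *Atf6*-/- mice are germline mutants in which every cell carries an early stop codon in *Atf6*, the controls were littermates, and both sexes were used in the study, although the sex behind each library was not given in the sources used here. No treatment is given in the labels for either group. The 9 genes were picked with this genotype contrast already known, so their differences are given as a description with 95% intervals. Calls among them are counted only to stand beside the share of all genes called, and are not read as tests.

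The integrated stress response begins when one of the eIF2alpha kinases phosphorylates the translation initiation factor eIF2, which slows translation of most mRNAs while *Atf4* and *Atf5* mRNAs, which carry short upstream reading frames, are translated more. ATF4 then binds C/EBP-ATF response elements together with C/EBP partners and switches on amino acid synthesis, amino acid transport, tRNA charging and its own feedback regulators. PERK, the kinase of the endoplasmic reticulum, shares the response to misfolded protein there with ATF6 and IRE1. Because ATF4 and ATF5 are set largely by translation, their mRNA levels do not report their protein levels.

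RefSeq promoter windows of 300 bases, from 250 bases before to 50 bases after a transcription start on GRCm38.p6, were at hand for all 9 genes (10 windows, since *Atf5* has 2 starts). These coordinates belong to GRCm38.p6 and not to the GRCm39 build used for the expression values. The C/EBP-ATF response element was searched as TGATGNAAN on both strands. It was present in 4 of the 10 windows, those of *Chac1*, *Trib3*, *Nupr1* and *Atf3*, and in 3.95% of all 32851 windows. The element lay from 194 to 186 bases before the start in *Chac1* and from 111 to 103 bases before it in both *Nupr1* and *Atf3*, whereas in *Trib3* it spanned bases 14 to 22 of the transcribed part. The endoplasmic reticulum stress response element, searched as CCAAT and CCACG with 9 bases of any kind between them (0.119% of all windows), and the ATF6 site TGACGTGG (0.676%) matched none of the 10 windows. A match is only a run of letters, and its absence from a window says nothing about binding. The 4 windows with the element are shown with the matched bases in capitals, so that its context can be compared between *Chac1* and *Trib3*, whose 95% intervals lay above 0, and *Nupr1* and *Atf3*, whose intervals included 0. All 4 had overlapping genotypes, and the interval of *Trib3* included 0 as well once a bone marrow score was added.
Chac1, chr2:119350992-119351291, plus strand: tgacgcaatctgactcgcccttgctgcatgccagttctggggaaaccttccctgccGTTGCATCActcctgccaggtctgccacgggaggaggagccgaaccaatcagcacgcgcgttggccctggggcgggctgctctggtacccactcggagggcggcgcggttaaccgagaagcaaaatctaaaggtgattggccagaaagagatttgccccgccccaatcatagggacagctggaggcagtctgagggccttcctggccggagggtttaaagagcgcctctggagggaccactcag
Trib3, chr2:152344011-152344310, minus strand: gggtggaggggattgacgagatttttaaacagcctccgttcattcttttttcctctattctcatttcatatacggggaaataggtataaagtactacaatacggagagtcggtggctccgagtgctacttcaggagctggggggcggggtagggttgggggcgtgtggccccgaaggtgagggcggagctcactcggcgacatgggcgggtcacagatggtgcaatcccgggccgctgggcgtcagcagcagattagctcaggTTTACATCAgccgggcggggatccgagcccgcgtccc
Nupr1, chr7:126625421-126625720, minus strand: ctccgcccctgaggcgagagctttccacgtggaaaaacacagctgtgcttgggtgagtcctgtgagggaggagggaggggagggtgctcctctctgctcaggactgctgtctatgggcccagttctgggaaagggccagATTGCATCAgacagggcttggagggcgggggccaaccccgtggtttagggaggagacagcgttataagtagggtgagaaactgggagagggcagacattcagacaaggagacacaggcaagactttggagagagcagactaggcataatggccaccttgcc
Atf3, chr1:191183284-191183583, minus strand: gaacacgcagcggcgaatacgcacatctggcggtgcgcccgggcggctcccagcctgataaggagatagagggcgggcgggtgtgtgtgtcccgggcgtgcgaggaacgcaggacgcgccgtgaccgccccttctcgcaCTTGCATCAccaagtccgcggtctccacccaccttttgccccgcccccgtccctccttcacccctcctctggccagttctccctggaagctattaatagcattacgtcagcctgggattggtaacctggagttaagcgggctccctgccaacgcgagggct
The windows of *Atf5*, the regulator with the clearest difference, and of *Ddit3* are shown for contrast. *Ddit3* had a lower mean in *Atf6*-/- cochleae, but its genotypes overlapped and its 95% interval included 0. The windows of both genes hold no capitals because the element was not matched in them.
Atf5, chr7:44816609-44816908, minus strand: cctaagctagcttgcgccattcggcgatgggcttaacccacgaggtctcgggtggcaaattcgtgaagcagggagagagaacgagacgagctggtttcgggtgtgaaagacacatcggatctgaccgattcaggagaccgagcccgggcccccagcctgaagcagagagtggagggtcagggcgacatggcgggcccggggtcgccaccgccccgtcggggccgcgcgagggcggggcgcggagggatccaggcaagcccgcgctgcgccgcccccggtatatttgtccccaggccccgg
Atf5, chr7:44815609-44815908, minus strand: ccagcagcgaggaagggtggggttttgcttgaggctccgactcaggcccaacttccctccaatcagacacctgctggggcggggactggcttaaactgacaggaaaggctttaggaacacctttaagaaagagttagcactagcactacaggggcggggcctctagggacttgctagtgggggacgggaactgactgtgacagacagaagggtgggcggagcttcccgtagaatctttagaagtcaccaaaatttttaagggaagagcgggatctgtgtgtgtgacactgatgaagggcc
Ddit3, chr10:127290543-127290842, plus strand: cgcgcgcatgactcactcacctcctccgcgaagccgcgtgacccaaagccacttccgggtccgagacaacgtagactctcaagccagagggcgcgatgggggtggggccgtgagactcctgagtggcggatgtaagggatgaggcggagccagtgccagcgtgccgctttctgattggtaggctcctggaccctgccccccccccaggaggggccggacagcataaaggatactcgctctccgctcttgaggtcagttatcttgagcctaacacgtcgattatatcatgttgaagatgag

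Higher levels in *Atf6*-/- cochleae were called for 4 of the regulators by an unadjusted rule, under which p may not exceed 0.05 and the log2 fold change must be larger than 0.05 in size. These thresholds are those of the study, which took its p from another test, while here p came from limma on the FPKM values. These were *Atf5*, *Chac1*, *Trib3* and *Atf4*, with mean FPKM in *Atf6*-/- at 1.83, 1.78, 1.42 and 1.14 times the *Atf6*+/+ mean. None of the 9 was lower by that rule, although *Ddit3* and *Atf3* had means at 0.861 and 0.832 of the *Atf6*+/+ level. That rule called 9.85% of all genes tested, 4.48% as higher and 5.37% as lower. At an adjusted p under 0.05 (limma with Benjamini-Hochberg adjustment over 16169 genes) *Atf5* was the only member called, where 0.068% of all genes were, 0.0557% as higher. *Atf5* was also the only member whose genotypes did not overlap, which was so for 1.25% of all genes and in the higher direction for 0.643%. Of the 9, 6 had a log2 fold change above 0, against 45.3% of all genes, and the median was 0.19. Since the members were chosen with this contrast known, nothing is read from these counts. *Atf5* and *Chac1* met the unadjusted rule without any 1 library, whereas *Atf4* did not meet it without any 1 of *Atf6*-/- replicates 1, 2, 3 and 4 and *Atf6*+/+ replicates 1, 2, 3 and 5, and *Trib3* not without *Atf6*-/- replicate 1 or 3 or *Atf6*+/+ replicate 1 or 2. Their log2 fold changes ranged from 0.16 to 0.26 and from 0.39 to 0.56 when 1 library was left out. Here and in what follows, ± gives the SD over 5 *Atf6*+/+ or 6 *Atf6*-/- libraries, and log2 fold changes are *Atf6*-/- minus *Atf6*+/+.

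The libraries themselves differed in tissue make-up. Markers of hair cells, supporting cells, stria vascularis, spiral ganglion neurons, Schwann cells and spiral ligament fibrocytes were found in the libraries, and no gene of these lists was at 0 in all of them. Summed hair cell markers ranged from 36.7 to 117 FPKM in *Atf6*+/+ and from 66.0 to 147 FPKM in *Atf6*-/- libraries, and summed stria vascularis markers from 225 to 422 FPKM and from 324 to 502 FPKM. All 7 hair cell, all 6 stria vascularis and all 4 spiral ligament fibrocyte markers had positive log2 fold changes, with medians of 0.26, 0.17 and 0.32, and 2, 1 and 1 of them were called higher by the unadjusted rule, where 4.48% of all genes were. Of 6 supporting cell markers 5 were positive and 1 was called higher, and all 6 spiral ganglion neuron markers were negative with a median of -0.064 and 0 called. All 6 bone markers had negative values with a median of -0.56, and 0 of them were called by that rule. The part of these differences in the members' values was not tested. The targeted gene itself, *Atf6*, was at 9.52 ± 1.11 FPKM in controls and at 4.27 ± 0.285 FPKM in mutants. All 7 neutrophil, all 4 tested B cell and all 6 erythroid markers had lower fitted levels in *Atf6*-/- cochleae, with median log2 fold changes of -1.49, -0.79 and -1.54, and 3, 2 and 5 of them were called lower by the unadjusted rule, where 5.37% of all genes were. Summed neutrophil markers ranged from 248 to 3053 FPKM in *Atf6*+/+ and from 89.4 to 1189 FPKM in *Atf6*-/- libraries, summed erythroid markers from 4631 to 44574 and from 2769 to 8993 FPKM, and summed B cell markers from 8.84 to 32.1 and from 7.09 to 12.8 FPKM. *Atf6*-/- replicate 3 held by far the most skeletal muscle RNA, with 30.8 FPKM summed over 5 markers against 0.290 to 4.03 FPKM in the other libraries. In whole tissue, fewer cells of a type and less RNA per cell cannot be told apart. Each member is therefore also given with a bone marrow score, averaged from the scores of these 3 marker lists, as a second term of the model.

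**Figure D1:**
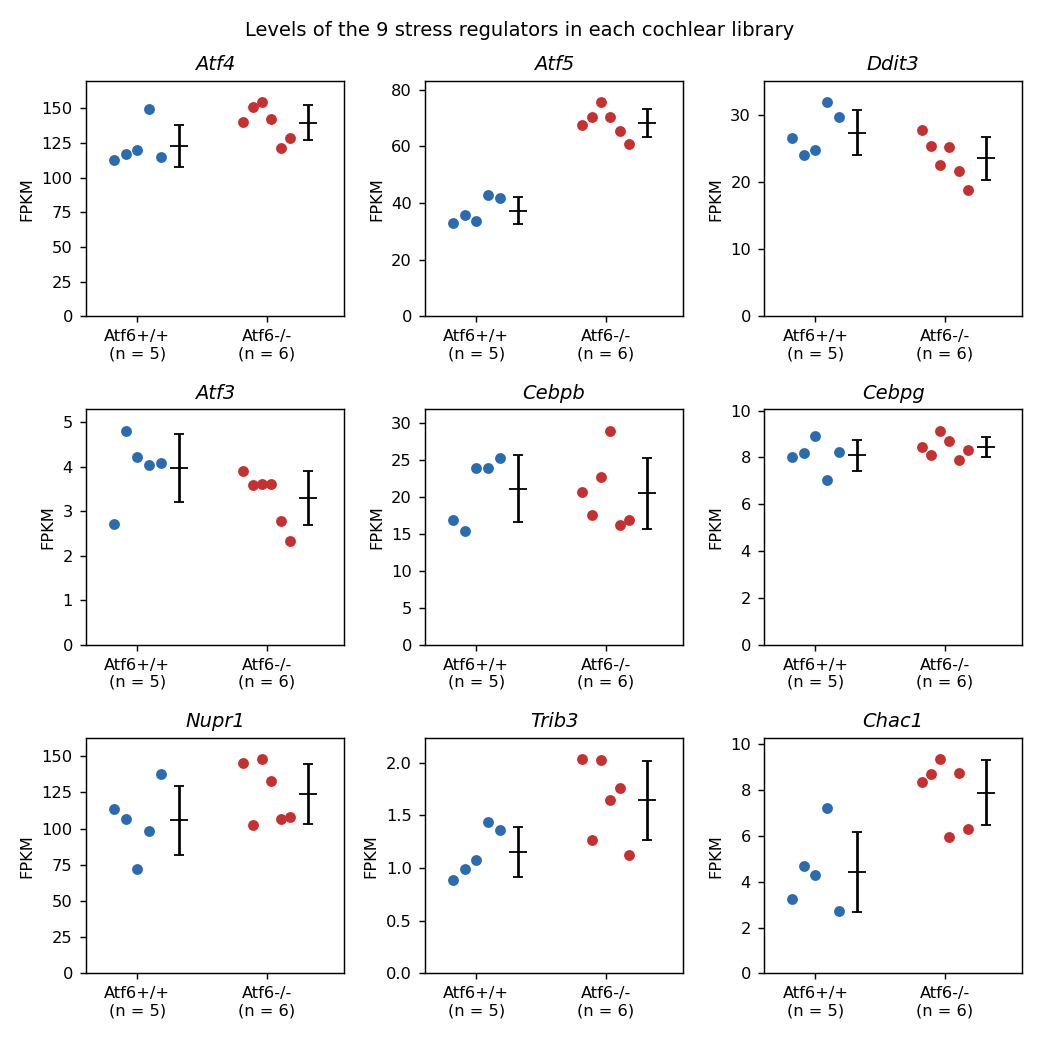
FPKM of the 9 regulators in each library (vertical axes, each from 0), 5 *Atf6*+/+ libraries in blue and 6 *Atf6*-/- libraries in red, with the mean and SD in black beside them. *Atf5* is the panel in which the groups separate, at 33.0 to 43.0 against 60.7 to 75.6 FPKM.

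In both genotypes, *Atf4* and *Nupr1* were the most abundant of the 9 and *Trib3* the least. Ranked among all genes tested, the mean over 11 libraries lay at the 96.7th percentile for *Atf4*, the 96.0th for *Nupr1*, the 90.0th for *Atf5*, the 77.4th for *Ddit3*, the 72.9th for *Cebpb*, the 49.0th for *Cebpg*, the 42.5th for *Chac1*, the 31.1st for *Atf3* and the 19.3rd for *Trib3*. In *Atf6*+/+ cochleae, the ranges of *Atf4* and *Nupr1*, of *Ddit3* and *Cebpb*, of *Cebpg* and *Chac1*, and of *Chac1* and *Atf3* overlapped, so these neighbours were not set apart by their spread. In *Atf6*-/- cochleae, *Chac1* overlapped *Cebpg* and lay wholly above *Atf3*.

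*Atf4* encodes the central activator of the pathway. In *Atf6*+/+ libraries 1 to 5 it was at 112.94, 117.01, 120.07, 149.07 and 115.05 FPKM, and in the 6 *Atf6*-/- libraries it ran from 121.64 over a median of 140.92 to 154.12 FPKM. One library, *Atf6*+/+ replicate 4, stood far above the rest of its group, and only 2 *Atf6*-/- libraries exceeded it. The log2 fold change was 0.19 (standard error 0.082, 95% interval 0.0080 to 0.37), and it was 0.26 without *Atf6*+/+ replicate 4. With the bone marrow score as a term it was 0.23 (95% interval -0.019 to 0.48).

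*Atf5* encodes the closest relative of ATF4, which is itself an ATF4 target and has been tied to mitochondrial protein stress. Its *Atf6*+/+ values were 32.95, 35.65, 33.67, 43.01 and 41.73 FPKM, and its *Atf6*-/- values ran from 60.72 over a median of 68.92 to 75.55 FPKM. The lowest *Atf6*-/- library thus lay well above the highest *Atf6*+/+ library. The groups differed by 0.87 on the log2 scale (standard error 0.080, 95% interval 0.70 to 1.05), and it stayed between 0.83 and 0.93 without any 1 library. It was 0.86 (95% interval 0.62 to 1.10) with the bone marrow score, so the difference was as large with that score added.

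*Ddit3* encodes CHOP, a bZIP factor induced by ATF4 that promotes cell death under lasting stress. Its *Atf6*+/+ values were 26.64, 24.03, 24.82, 31.90 and 29.66 FPKM, while *Atf6*-/- libraries ran from 18.86 over a median of 23.94 to 27.74 FPKM. In 3 *Atf6*-/- libraries it was below the lowest *Atf6*+/+ library, and in none was it above the highest. On the log2 scale the difference was -0.22 (standard error 0.10, 95% interval -0.44 to 0.0036) and stayed negative in all 19 alternative fits, from -0.28 to -0.16. It met the unadjusted rule as lower without any 1 of *Atf6*-/- replicates 1, 2 and 4 and *Atf6*+/+ replicates 2 and 3.

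*Atf3* encodes a further bZIP factor, induced both by ATF4 and as an immediate early gene. It was low, at 2.71, 4.81, 4.22, 4.05 and 4.08 FPKM in *Atf6*+/+ and from 2.33 over a median of 3.60 to 3.91 FPKM in *Atf6*-/- libraries. All *Atf6*-/- values were inside or below the *Atf6*+/+ range, which reached from 2.71 in replicate 1 to 4.81 in replicate 2. The log2 fold change was -0.26 (standard error 0.16, 95% interval -0.61 to 0.095), and it was -0.38 without *Atf6*+/+ replicate 1 and -0.16 without *Atf6*-/- replicate 6.

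The C/EBP members are dimer partners of ATF4 and CHOP. *Cebpb*, which also serves myeloid and acute-phase gene expression, was at 16.95, 15.47, 23.88, 23.98 and 25.26 FPKM in *Atf6*+/+ and from 16.15 over a median of 19.1 to 28.94 FPKM in *Atf6*-/- libraries. Both groups spanned almost the same range, and the log2 fold change of -0.045 (95% interval -0.42 to 0.33) turned to 0.18 with the bone marrow score and to 0.011 after rescaling to TPM. *Cebpg*, which lacks an activation domain and pairs with ATF4 on amino acid genes, was the steadiest of the 9, at 8.03, 8.20, 8.92, 7.05 and 8.23 FPKM in *Atf6*+/+ and 7.91 to 9.13 FPKM in *Atf6*-/- libraries (median 8.38). Its log2 fold change was 0.062 (standard error 0.066, 95% interval -0.081 to 0.20).

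*Nupr1* encodes a small stress-induced chromatin protein that acts with ATF4. It was abundant and variable, at 113.70, 106.85, 71.86, 98.05 and 137.68 FPKM in *Atf6*+/+ and from 102.68 over a median of 120.43 to 147.72 FPKM in *Atf6*-/- libraries. Low and high values occurred in both groups, and 2 *Atf6*-/- libraries exceeded the highest *Atf6*+/+ library. The log2 fold change of 0.24 (95% interval -0.089 to 0.58) was 0.11 without *Atf6*+/+ replicate 3, 0.35 without *Atf6*+/+ replicate 5 and -0.048 (95% interval -0.42 to 0.32) with the bone marrow score as a term.

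*Trib3* encodes a pseudokinase that binds ATF4 and CHOP and restrains them. Its *Atf6*+/+ values were 0.89, 0.99, 1.08, 1.44 and 1.36 FPKM, and its *Atf6*-/- values ran from 1.12 over a median of 1.70 to 2.03 FPKM. Of the 6 *Atf6*-/- libraries, 4 were above every *Atf6*+/+ library, and replicates 2 and 6 were not. Its log2 fold change was 0.46 (standard error 0.18, 95% interval 0.075 to 0.85), and 0.35 (95% interval -0.18 to 0.89) with the bone marrow score.

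*Chac1* encodes a glutathione-degrading cyclotransferase switched on by ATF4, with ATF3 and C/EBPbeta, and by CHOP. It was at 3.26, 4.68, 4.29, 7.21 and 2.71 FPKM in *Atf6*+/+ and from 5.94 over a median of 8.53 to 9.35 FPKM in *Atf6*-/- libraries. Replicate 4 was the 1 *Atf6*+/+ library within the *Atf6*-/- range. The log2 fold change was 0.88 (standard error 0.22, 95% interval 0.41 to 1.35). It was 1.07 without that library, 0.73 without *Atf6*+/+ replicate 5 and 0.85 (95% interval 0.19 to 1.50) with the bone marrow score. *Chac1* thus had a fold change of the same size as *Atf5* with a wider interval, its *Atf6*+/+ libraries spreading from 2.71 to 7.21 FPKM.

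**Figure D2:**
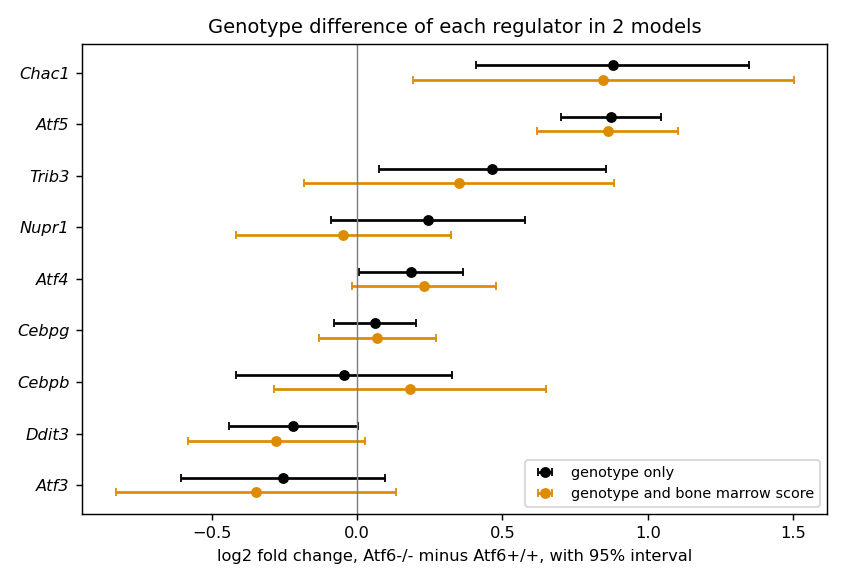
Log2 fold change of each regulator (horizontal axis, *Atf6*-/- minus *Atf6*+/+) with its 95% interval, from the model with genotype alone (black) and with a bone marrow score added (orange). *Atf5* and *Chac1* lie above 0 in both models, *Nupr1* moves from 0.24 to -0.048 and *Cebpb* from -0.045 to 0.18.

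Ratios between 2 members in the same library do not depend on how libraries are scaled. The ratio of *Atf5* to *Atf4* FPKM was 0.306 ± 0.033 (SD, n = 5) in *Atf6*+/+ and 0.491 ± 0.026 (SD, n = 6) in *Atf6*-/- cochleae, with no overlap between 0.280 to 0.363 and 0.466 to 0.538. A ratio to *Atf4* that was higher without overlap was found for 0.068% of all genes. Since the members were chosen with this contrast known, no rarity is read from such shares. The ratio of *Ddit3* to *Atf4* was 0.224 ± 0.023 in *Atf6*+/+ and 0.169 ± 0.020 in *Atf6*-/- cochleae, also without overlap (0.205 to 0.258 against 0.147 to 0.198). A lower ratio to *Atf4* without overlap was found for 5.68% of all genes, so for *Ddit3* this was a common pattern. *Atf5* stood to *Ddit3* at 1.24 to 1.48 in *Atf6*+/+ and at 2.43 to 3.34 in *Atf6*-/- libraries, a separation in the higher direction shared by 0.909% of all genes, while 0.0495% had a lower ratio to *Ddit3* without overlap. *Chac1* relative to *Atf4* was 0.0353 ± 0.0096 and 0.0568 ± 0.010, and *Chac1* relative to *Ddit3* was 0.161 ± 0.054 and 0.338 ± 0.067. For *Chac1* to *Atf4* the ranges overlapped, from 0.0236 to 0.0484 and from 0.0418 to 0.0721, and for *Chac1* to *Ddit3* they did not, from 0.0914 to 0.226 and from 0.235 to 0.413.

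**Figure D3:**
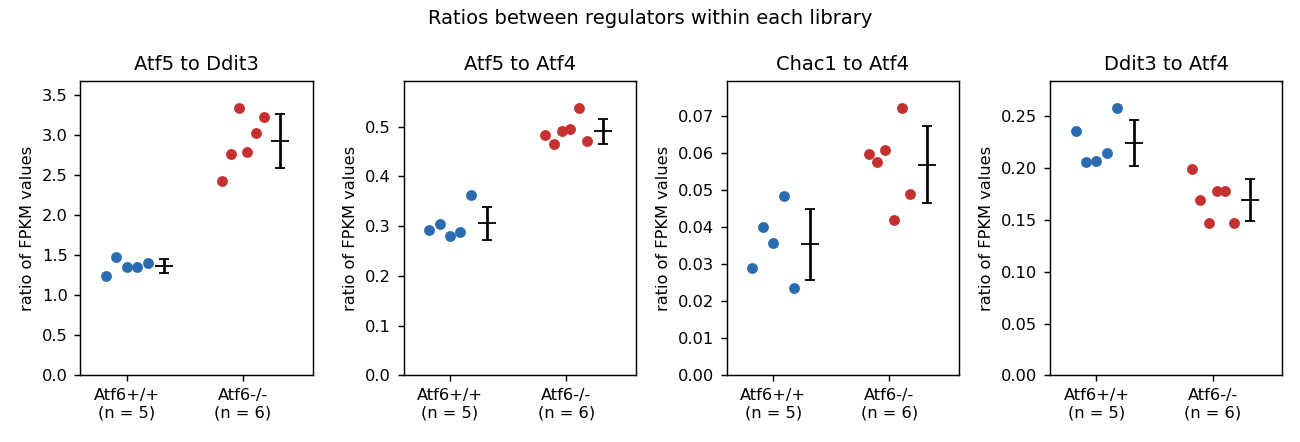
Ratios of FPKM values between regulators within each library (vertical axes from 0), for 5 *Atf6*+/+ libraries in blue and 6 *Atf6*-/- libraries in red, with mean and SD in black. *Atf5* to *Ddit3* was 1.24 to 1.48 against 2.43 to 3.34, and *Ddit3* to *Atf4* was 0.205 to 0.258 against 0.147 to 0.198.

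Among the nearest relatives of the members, 8 paralogs, 0 met either rule in limma, which is near the background with 9.85% of all genes called by the unadjusted rule. Of these 8, 3 had positive and 5 negative log2 fold changes, and the median of their log2 fold changes was -0.061, that of all genes tested being -0.013. *Chac2*, the constitutive relative of *Chac1*, was at 4.85 ± 0.807 FPKM in controls against 4.48 ± 0.472 FPKM in mutants. *Trib1* and *Trib2*, pseudokinases related to *Trib3*, averaged 5.92 and 13.2 FPKM in *Atf6*+/+ and 6.36 and 12.4 FPKM in *Atf6*-/- cochleae. *Nupr1l*, *Cebpa* and *Jdp2*, the last a close relative of *Atf3*, had log2 fold changes of 0.18, 0.024 and -0.035. *Cebpd* and *Cebpe*, the second a granulocyte factor, had values of -0.37 and -1.22, and *Cebpe* ranged from 0.77 to 6.44 FPKM in *Atf6*+/+ and from 0.26 to 3.95 FPKM in *Atf6*-/- libraries. The part of the neutrophil RNA in these differences was not tested.

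Direct targets of ATF4 mostly had positive log2 fold changes. Of 37 targets, 34 had a value above 0, against 45.3% of all genes. Among these was *Slc7a11* at 0.00014, with mean FPKM of 7.28 in controls and 7.21 in mutants. By the unadjusted rule 22 (59.5%) were called higher and 0 lower, while 4.48% of all genes were called higher. The median over the list was 0.20 on the log2 scale (all genes, -0.013), 12 had no overlap between genotypes (1.25% of all genes), and from 17 to 26 were called higher in the alternative fits. The list was written with earlier results of these data known and so gives no independent evidence of its direction. At an adjusted p under 0.05 were 3 of them, *Fgf21*, *Adm2* and *Shmt2* (limma, adjusted p = 0.00923, 0.00534 and 0.0482), of which *Adm2* and *Shmt2* were named after their values were seen. *Adm2*, which averaged 0.042 FPKM in controls against 0.547 FPKM in mutants, reached the filter of 0.1 FPKM only through the group in which it was higher, so its call is no support for the list. The 4 largest differences among called targets averaging 1 FPKM or more were those of *Fgf21*, a secreted hormone, *Gdf15*, another stress hormone, *Aldh1l2*, a mitochondrial folate enzyme, and *Cth*, a cysteine synthesis enzyme. *Fgf21* averaged 2.65 ± 2.09 and 18.1 ± 1.76 FPKM in *Atf6*+/+ and *Atf6*-/- cochleae, *Gdf15* 0.726 ± 0.165 and 1.45 ± 0.372, *Aldh1l2* 1.03 ± 0.163 and 1.66 ± 0.152, and *Cth* 0.874 ± 0.192 and 1.40 ± 0.269 FPKM. *Gdf15* and *Cth* reached a mean of 1 FPKM over all libraries only through their *Atf6*-/- values, so their place among the 4 depends on the difference itself. Both overlapped between the genotypes, and *Fgf21* and *Aldh1l2* did not. Of 29 targets with a promoter window, 10 held TGATGNAAN, which was present in 3.95% of all windows. *Aars*, *Asns*, *Fgf21*, *Iars*, *Pycr1*, *Slc1a4* and *Vldlr* held it and were called higher by the unadjusted rule. *Gars*, *Pck2* and *Slc7a11* held it and were not called. Whether calls go with the element was not tested.

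Genes under CHOP, with shared feedback and death genes, form a list of 7, of which 0 passed the limma test at an unadjusted or adjusted p of 0.05. With 9.85% of all genes called by the unadjusted rule, a count of 0 in so short a list is near the background. The median log2 fold change was 0.0011. *Ppp1r15a*, the phosphatase subunit that ends eIF2 phosphorylation, was at 22.9 ± 1.69 FPKM in *Atf6*+/+ against 23.0 ± 1.16 FPKM in *Atf6*-/- cochleae, and *Ero1a*, an oxidase of the endoplasmic reticulum, 14.5 ± 1.45 and 14.4 ± 0.682 FPKM. *Tnfrsf10b*, *Bbc3*, *Bcl2l11*, *Pmaip1* and *Gadd45a*, which act in death signalling or growth arrest, had log2 fold changes from -0.16 to 0.018. Upstream, 0 of 14 genes for eIF2 kinases, eIF2 and its exchange factor, phosphatase subunits and the mitochondrial relay OMA1-DELE1 passed either rule, again a count near the share of all genes, with log2 fold changes from -0.083 to 0.088. *Eif2ak3*, which encodes PERK, was at 11.4 ± 0.329 FPKM in controls against 11.8 ± 0.904 FPKM in mutants.

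Mitochondrial chaperones and proteases, which have been tied to ATF5, form a list of 7 with a median log2 fold change of -0.030. By the unadjusted rule 0 were called higher, near the background given that 4.48% of all genes were, and *Hspe1*, the mitochondrial co-chaperonin, was called lower, where 5.37% of all genes were, with 59.5 ± 8.61 FPKM in controls and 50.4 ± 6.03 FPKM in mutants (log2 fold change -0.23). The list had 0 lower calls with the bone marrow score and without any 1 of *Atf6*-/- replicates 1, 4, 5 and 6 and *Atf6*+/+ replicates 3, 4 and 5, and 2 without *Atf6*-/- replicate 3 or *Atf6*+/+ replicate 1. *Lonp1* and *Clpp*, both mitochondrial proteases, had log2 fold changes of -0.030 and 0.031 with standard errors of 0.037 and 0.077.

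Among 45 other bZIP factors tested, 5 (11.1%) were called higher and 1 lower by the unadjusted rule, against 4.48% and 5.37% of all genes, and the median log2 fold change was -0.017. The lower one was *Atf6* itself. *Nfe2l3* and *Creb3l2* had the largest values of those called higher, 0.41 and 0.30, followed by *Maf* at 0.14 and *Atf6b*, the paralog of *Atf6*, at 0.12 (limma, adjusted p = 0.469, 0.434, 0.466 and 0.391). *Atf6b* was at 33.3 ± 1.45 FPKM in controls and 36.3 ± 0.353 FPKM in mutants, without overlap. *Xbp1*, the factor of the IRE1 arm, averaged 62.0 and 65.3 FPKM and was not called. The counts of called bZIP factors moved with the fit. With the bone marrow score 3 were higher and 3 lower, with replicate number as a block 3 and 4, and after rescaling to TPM 8 and 1. Of 15 immediate early genes, which also respond to handling and to neuronal activity, 0 were called higher and *Ier3* was called lower (18.1 and 14.7 FPKM, log2 fold change -0.28), with a list median of -0.061.

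**Figure D4:**
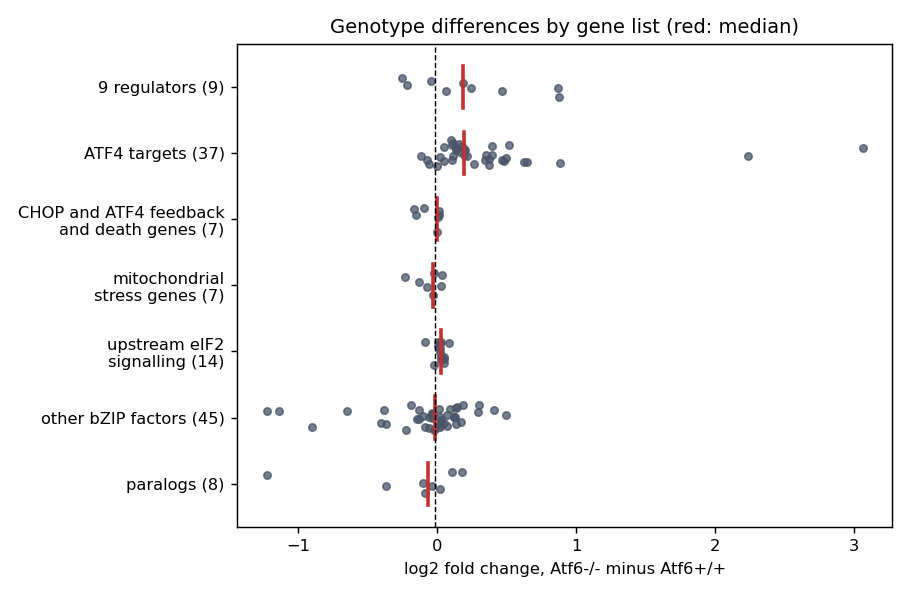
Log2 fold changes (horizontal axis, *Atf6*-/- minus *Atf6*+/+) of the tested genes of each list, 1 point a gene with random vertical offsets, with the list's median in red and the median of all genes, -0.013, as a dashed line. ATF4 targets lie mostly to the right with a median of 0.20, while the CHOP, mitochondrial and upstream lists lie around 0.

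Variation from library to library within a genotype was examined next. It leaves out the difference between genotype means, although the calls known when the members were picked also depend on this spread. Deviations from the genotype mean were correlated over the 11 libraries for all 36 pairs, with exact two-sided permutation tests over the 86400 reorderings of libraries within genotypes. Of the pairs, 29 had a positive r, and the median r was 0.40. The strongest were *Atf5* with *Trib3* (Pearson r = 0.72, exact permutation p = 0.0181, adjusted p = 0.326, Spearman rho = 0.70, exact permutation p = 0.0207) and *Atf4* with *Atf5* (r = 0.70, exact permutation p = 0.0124, adjusted p = 0.326, rho = 0.69, exact permutation p = 0.0177). Without the 2 libraries farthest from the median of the first gene, r was 0.61 and 0.38, so the second relation rested on *Atf6*+/+ replicate 4 and *Atf6*-/- replicate 3. No pair of the 36 had an adjusted p under 0.05, and 4 had an unadjusted p under 0.05. The lowest r was that of *Cebpg* with *Chac1* (r = -0.44, exact permutation p = 0.272, adjusted p = 0.481, rho = -0.42, exact permutation p = 0.229), and it was -0.074 without 2 libraries.

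**Figure D5:**
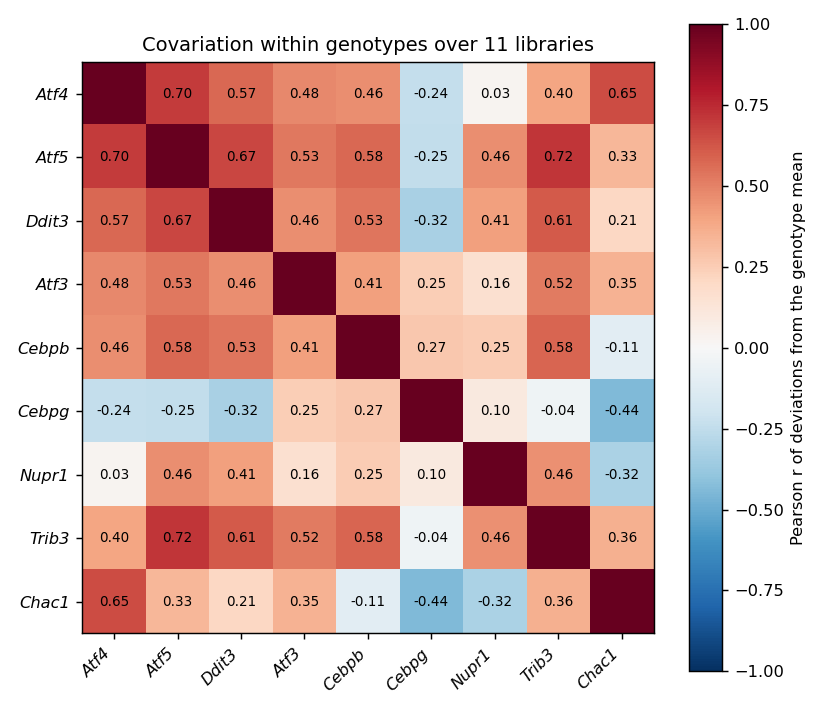
Pearson r between the deviations of 2 regulators from their genotype means over 11 libraries, printed in each cell and coloured from -1 (blue) to 1 (red). *Atf5* with *Trib3* (0.72) and *Atf4* with *Atf5* (0.70) are the highest, and *Cebpg* with *Chac1* (-0.44) is the lowest.

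Relations of the 9 members to 12 cell type scores and the immediate early gene score gave 117 comparisons, of which 0 had an adjusted p under 0.05 and 12 an unadjusted p under 0.05 (exact permutation within genotypes, n = 11 libraries). *Cebpb* followed the immediate early genes most closely (r = 0.85, exact permutation p = 0.00141, adjusted p = 0.0826, rho = 0.85, exact permutation p = 0.00405), and r was 0.78 without the 2 libraries farthest from its median. *Atf4* ran opposite to the stria vascularis score (r = -0.87, exact permutation p = 0.0125, adjusted p = 0.291, rho = -0.92, exact permutation p = 0.00297), with r = -0.69 without *Atf6*+/+ replicate 4, r = -0.98 without *Atf6*-/- replicate 3 and r = -0.92 without both. *Atf4* also ran opposite to the spiral ligament fibrocyte score (r = -0.73, exact permutation p = 0.00648, adjusted p = 0.253, rho = -0.80, exact permutation p = 0.00324), with r = -0.78 without these 2 libraries. Its relation to the spiral ganglion neuron score was positive (r = 0.68, exact permutation p = 0.0286, adjusted p = 0.372, rho = 0.70, exact permutation p = 0.0267), with r = 0.86. *Ddit3* ran opposite to the stria vascularis score too (r = -0.70, exact permutation p = 0.0112, adjusted p = 0.291, rho = -0.65, exact permutation p = 0.0483), with r = -0.72. *Nupr1* had r = 0.49 with skeletal muscle markers (exact permutation p = 0.000706, adjusted p = 0.0826, rho = 0.65, exact permutation p = 0.0012), and 0.60 without 2 libraries. Muscle markers were highest by far in *Atf6*-/- replicate 3, which was kept in both values.

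Genes whose deviations were most like those of a member were searched among 13610 genes averaging 1 FPKM or more, as a description over 11 libraries. For *Chac1* the 5 nearest were *Sars* (r = 0.94), *Mcub* (0.91), *Fbll1* (0.89), *Rnf185* (0.89) and *Gars* (0.87), of which *Sars* and *Gars*, the seryl- and glycyl-tRNA synthetases, were on the list of ATF4 targets. For *Atf4* they were *Acot7* (0.98), *Ly6h* (0.98), *Sco2* (0.97), *Aifm3* (0.95) and *Rtl8c* (0.95), and for *Atf5* *Slc39a7* (0.96), *Snapc2* (0.95), *Eif4a3* (0.94), *Dxo* (0.94) and *Znhit1* (0.94). For *Ddit3* they were *Eif3g* (0.91), *Nudt6* (0.90), *Dtnbp1* (0.90), *Klhl17* (0.90) and *Rab24* (0.90). None of these 15 genes was on the ATF4 list. The median r over 36 ATF4 targets was 0.37 for *Atf4*, 0.25 for *Atf5*, 0.23 for *Chac1* and 0.19 for *Ddit3*, against medians from -0.029 to 0.068 over all genes searched. With 11 libraries and so many genes, high values of r can occur by themselves, and depth and tissue make-up are shared by all points.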

How the data were processed

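RNA-Seq was performed on single cochleae, 5 *Atf6*+/+ and 6 *Atf6*-/-, with RNeasy extraction and stranded mRNA libraries on the DNBSEQ platform. Per the submitters' processing notes, the authors aligned reads to GRCm39 with HISAT2 2.0.4 and estimated expression with RSEM 1.2.12, and they deposited FPKM values with 2 decimals, 1 column per library. No read counts entered the work, so the depth reached in each library and the counting error cannot be read from the values; the methods give only 1 nominal depth for all samples. Column sums ran from 462005 to 537926 FPKM. The 2 tables were joined by NCBI gene identifier.

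Log2(FPKM + 0.1) of 16169 genes averaging 0.1 FPKM or more was fitted on genotype in R 4.3.3 by limma 3.58.1 with its trend option, and two-sided p-values were adjusted by Benjamini-Hochberg over all genes. Fold changes are on that scale, which understates those of low genes. Nothing in the labels states separate litters or days. The members and lists were chosen with earlier results of these data known. All members and paralogs are named, and from other lists up to 4 called genes in each direction averaging 1 FPKM or more. *Adm2*, *Shmt2*, the genes under CHOP, *Eif2ak3*, *Lonp1*, *Clpp*, *Xbp1* and the targets named for a promoter match were added after their values were seen. Alternatives were other pseudocounts, filters and scalings, a replicate block, a bone marrow score and leaving out each library. Python 3.11.15 was used for the remaining steps.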

Additional observations from a re-analysis of the deposited data

Results flagged for a closer look

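In 70 groups of values checked with Dixon's criterion, 6 had a library that stood apart. Chance flags about 1 group in 20 where values are normal and groups are unrelated. That rate need not hold here, because normality was not checked and the groups share libraries and genes. *Atf4* was at 149.1 FPKM in *Atf6*+/+ replicate 4, against 112.94 to 120.07 FPKM in the other *Atf6*+/+ libraries. *Cebpe* was at 3.95 FPKM in *Atf6*-/- replicate 4, against 0.26 to 0.93 FPKM in the rest of that group, and the summed neutrophil markers of the same library were at 1189 FPKM against 89.4 to 338 FPKM. Summed Schwann cell markers were at 6576 FPKM in *Atf6*+/+ replicate 4, against 5591 to 5769 FPKM. Summed erythroid markers were at 44570 FPKM in *Atf6*+/+ replicate 5, against 4631 to 15409 FPKM. Summed skeletal muscle markers were at 30.83 FPKM in *Atf6*-/- replicate 3, against 0.290 to 0.870 FPKM.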

How the results depend on the processing

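Over the 19 alternative fits, 17 to 26 ATF4 targets were called higher. With the bone marrow score, 6 genes were called at an adjusted p and 830 by the unadjusted rule (11 and 1592 in the model without it), with 2 members, *Atf5* and *Chac1*, and 3 other bZIP factors higher, 3 lower and 0 mitochondrial stress genes lower. With the replicate block, in which *Atf6*-/- replicate 6 has no partner, 4 genes were called at an adjusted p, and 3 bZIP factors were higher, 4 lower and 0 mitochondrial stress genes lower. No pairing by replicate number is stated in the labels. Same-numbered libraries had correlations from -0.21 to 0.12 in their deviations from the genotype means. These values cannot decide whether libraries were paired, because tissue make-up also enters them. After TPM scaling, the log2 fold changes of all genes centred on a median of 0.043 in place of -0.013, with 8 bZIP factors called higher, 0 mitochondrial stress genes lower, 1 upstream gene higher and 5 members, *Nupr1* (0.30) being added. *Nupr1* was also called without *Atf6*+/+ replicate 5 (0.35), and *Atf3* was called lower without *Atf6*+/+ replicate 1 (-0.38). Without the filter, 2 bZIP factors were lower. With a pseudocount of 1 FPKM, 1 relation to a cell type or immediate early score had an adjusted p under 0.05. The *Cebpb* log2 fold change turned to 0.18 with the bone marrow score, 0.0049 with the block, 0.011 in TPM and between -0.15 and 0.026 without 1 library, where it was 0.017, 0.0049, 0.0062, 0.0077 and 0.026 without *Atf6*-/- replicates 5 and 6 and *Atf6*+/+ replicates 3, 4 and 5. *Nupr1* turned to -0.048 with the bone marrow score. Without 1 library, 8 to 13 genes were called at an adjusted p and 1196 to 1865 by the unadjusted rule, 2 to 4 members, 0 to 1 ATF4 targets lower, 3 to 7 bZIP factors higher and 1 to 3 lower, 0 to 2 mitochondrial stress genes lower, and 0 to 2 relations to scores. The causes of these changes were not tested. FPKM without counts limits what can be said of *Trib3* and *Atf3*, the lowest members.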
